A study of Homo sapiens with 10 samples.

Results

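The MAP kinase feedback inhibitors examined here are 10 genes, taken as every entry of the deposited count table whose gene symbol is DUSP1, DUSP4, DUSP5, DUSP6, SPRY1, SPRY2, SPRY4, SPRED1, SPRED2 or ETV5. All 10 were found among the 22626 entries of that table, and all 10 passed the filter on low counts that left 14936 entries to test. The cells were ARPE-19, an established human line of retinal pigment epithelium (RPE), grown in DMEM with fetal bovine serum. The control group (n = 5) was kept for 48 h in 5.5 mM D-glucose with 32 mM mannitol, a sugar alcohol added to match the osmotic load, and the high glucose (HG) group (n = 5) for 48 h in 37.5 mM D-glucose. The study used this pair of media to ask how high glucose changes RPE cells. Nothing in the labels says whether the libraries of a group were separate cultures, so the p-values measure the spread between these libraries, which may be technical. Control libraries keep the numbers of their labels, and HG libraries carry the number of their deposited column, since the labels tie those columns to the group but not to a sample.

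Growth factor receptors activate RAS, which passes the signal through the kinases RAF and MEK to ERK, a MAP kinase that enters the nucleus and turns on transcription. Among the genes it turns on are its own brakes. Dual-specificity phosphatases (DUSP) remove the activating phosphates from MAP kinases, Sprouty proteins (SPRY) block the pathway near the receptor and RAS, and SPRED proteins hold RAS inactive by bringing the RAS-inactivating protein neurofibromin to the membrane. ETV5 is not an inhibitor: it is an ETS transcription factor of the PEA3 group whose mRNA commonly rises with ERK activity, and it serves beside the brakes as a readout. In the RPE, MAP kinase signalling is known for its part in proliferation, wound healing and stress responses. The mRNA levels measured here do not report the phosphorylation of ERK.

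DUSP1 fell and DUSP4 and ETV5 rose in high glucose, while the other 7 genes did not pass the test. DUSP1 fell by 21.9%, DUSP4 rose by 19.1% and ETV5 by 45.0%. Genes were tested by the quasi-likelihood method of edgeR, p-values were adjusted over all 14936 entries after Benjamini and Hochberg, and a call means an adjusted p under 0.05. By that rule 3 of 10 members were called, against a background of 15.4% of all entries tested. In the direction of higher expression the count was 2 of 10 (background 7.62%), and in the lower direction 1 of 10 (background 7.8%). None of the 3 had a fold change above 1.5 together with its adjusted p, which 3.69% of all entries had. The median log2 fold change was 0.23 over the members and 0.00132 over all entries tested, and the median absolute log2 fold change was 0.28 against 0.15.

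The promoters of the gene with the smallest p and of the gene nearest to no change are shown first, as the sequence that lies before each start site. The sequences come from a table of RefSeq promoters (GRCh38.p14). In the table used here 7 of 10 members matched an entry, and DUSP4, DUSP5 and ETV5 did not. Each line gives the 250 bases before the start site, 5′ to 3′ on the strand of the gene, and capitals mark a match to a searched motif. The DUSP1 window is chr5:172771196-172771445 and the SPRY2 window is chr13:80341127-80341376, both on the minus strand.
DUSP1: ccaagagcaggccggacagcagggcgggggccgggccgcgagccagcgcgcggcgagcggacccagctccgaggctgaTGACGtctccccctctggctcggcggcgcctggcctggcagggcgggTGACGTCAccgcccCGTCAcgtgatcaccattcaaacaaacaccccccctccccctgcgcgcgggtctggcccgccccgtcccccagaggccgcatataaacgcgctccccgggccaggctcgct
SPRY2: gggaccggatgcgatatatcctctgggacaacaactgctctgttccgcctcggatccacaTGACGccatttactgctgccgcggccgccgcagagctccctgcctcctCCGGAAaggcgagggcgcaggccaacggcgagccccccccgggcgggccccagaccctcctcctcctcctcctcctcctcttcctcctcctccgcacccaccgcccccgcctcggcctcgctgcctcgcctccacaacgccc

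A set of 6 motifs was searched on both strands of every RefSeq window from 250 bases before to 50 bases after a start site. They were the cAMP response element (CRE, TGACGTCA), its short form (TGACG), the AP-1 site (TGACTCA), the core of the ETS site (CCGGAA), the site of the ERK-controlled repressor CIC (TGAATGAA) and the CArG box of serum response factor. The DUSP1 window holds a full CRE at 125 bases before the start site, which 1.85% of the 35116 windows also hold. It holds 4 matches to the short form, at 172, 125, 122 and 111 bases before the start site, of which those at 125 and 122 lie inside the full CRE. Windows with at least 4 such matches make up 0.313% of all windows. SPRY2 has 3 windows, of which the outermost, shown here, holds 1 short form at 190 bases (in 24.6% of windows) and 1 ETS core at 142 bases (in 17.2%), and the other 2 hold none of the 6 motifs. Of the other members, a SPRY1 window holds an ETS core at 67 bases, the SPRY4 window a short form at 68 bases, and a SPRED2 window an AP-1 site at 6 bases before the start site (in 4.95% of windows). The other SPRED2 window holds a short form 30 bases after the start site. The DUSP6 and SPRED1 windows hold none of the 6 motifs. A match is a run of letters and says nothing of whether a factor was bound in these cells.

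Libraries held 33039260 to 45864176 counts in the control group and 32448991 to 44400714 in the HG group. A level in CPM, the count scaled to a fixed library size, is used throughout. The limit of detection was taken as 3 counts, which came to 0.0654 to 0.0925 CPM on library totals without the TMM scaling of the other values. TXNIP, a glucose-induced gene, was at 0.809 to 1.23 CPM in the control and 5.38 to 12.9 CPM in the HG libraries, in the direction of the labels. Control 2 and HG 1 stood apart in the relation of counts to GC content, with slopes of 0.17 and 0.19 on the log2 scale per 10 percentage points of GC, against -0.0916 to -0.00519 in the other 8 libraries. Of 10 RPE markers 6 had a mean of at least 1 CPM (keratins 8 and 18, BEST1, MITF, RLBP1 and PMEL), while RPE65 had 0 to 6 counts and TTR 0 counts in every library. BEST1 had 8707 counts in control 1 and 18223 in control 4 against 24 to 300 in the other 8 libraries. The 10 RPE markers summed to 2733 to 3487 CPM in the control and 1707 to 2381 CPM in the HG group, most of it keratins 8 and 18. The immune list (sum 54.5 to 81.3 against 101.7 to 143.6 CPM, nearly all CD68, with PTPRC at 0 to 4 counts and CD3E at 0), the fibroblast list (40.4 to 54.3 against 16.7 to 20.9 CPM, nearly all COL1A1, with LUM and THY1 at 0) and the endothelial list (2.93 to 5.05 against 2.13 to 3.13 CPM, with CDH5 at 0) each had 1 gene at 1 CPM or more. The part of these differences in the results below was not tested.

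**Figure D1:**
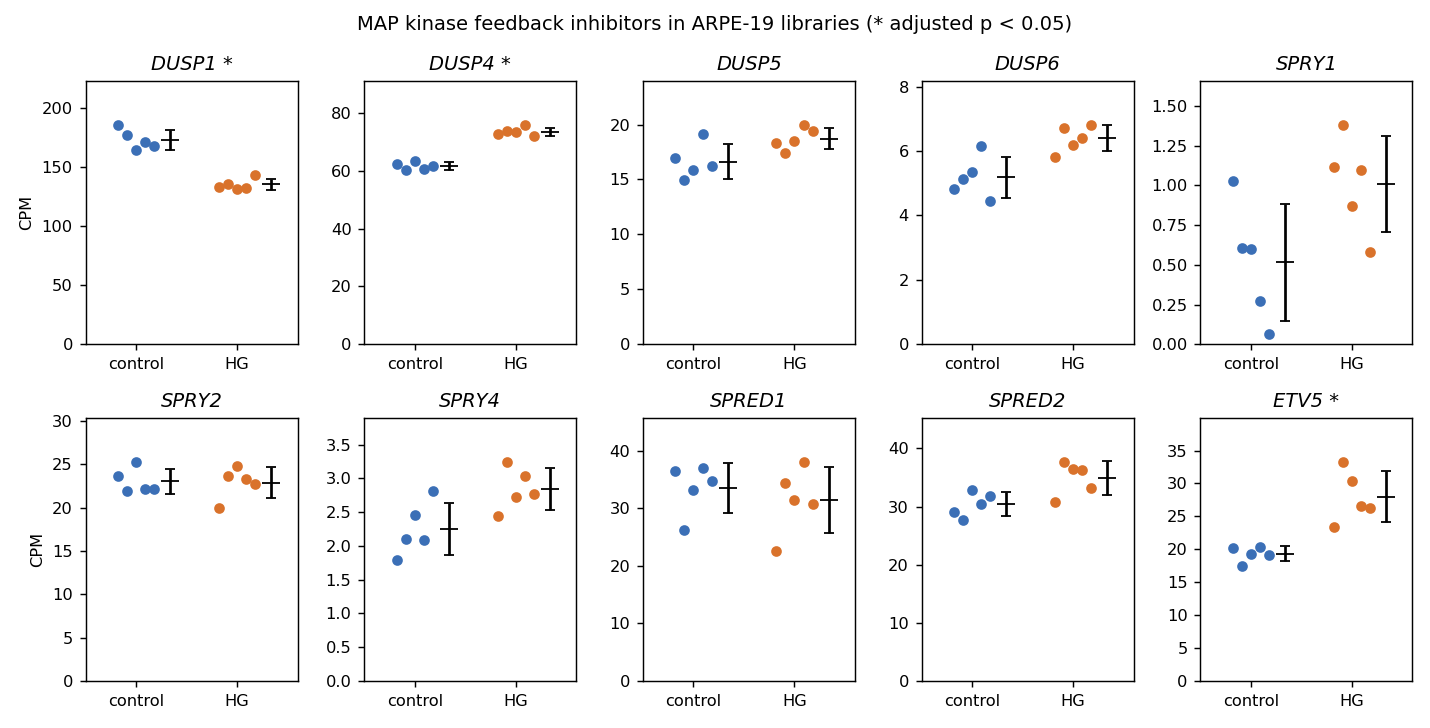
Normalised counts (CPM, vertical axis from 0, 1 panel per gene) of the 10 members in the 5 control and 5 HG libraries: each point is 1 library and the bars give the mean and SD. The groups are separate for DUSP1 (HG lower, 131 to 143 against 164 to 185 CPM), DUSP4 (HG higher) and ETV5 (HG higher), and they overlap in the other 7 panels.

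Among the nuclear phosphatases, DUSP1, an immediate early gene whose product acts on p38 and JNK as well as on ERK, was the member that fell. Its level was 185, 177, 164, 171 and 167 CPM in control 1 to 5 and 133, 135, 131, 132 and 143 CPM in HG 1 to 5. Every HG library was below every control library. The means were 173 ± 8.42 and 135 ± 4.88 CPM (SD, n = 5 each), a log2 fold change of -0.36 (SE 0.0453, 95% interval -0.46 to -0.25, adjusted p = 0.000589 by edgeR). An exact two-sided permutation test (252 arrangements) gave p = 0.00794, the smallest these groups allow. That value follows from the separation of the groups and adds nothing to it. By the same test DUSP4 and ETV5, whose groups were also separate, had the same p. DUSP6, SPRED2 and DUSP5, which were not called, had 0.0159, 0.0317 and 0.0476. DUSP1 lies at chr5:172768090-172771195 on the minus strand (GRCh38, GENCODE 29), and the antisense gene AC022217.3 covers all 3106 bases of it. The sources used here do not state whether counting used the strand, so reads of DUSP1 and of this antisense gene cannot be told apart.

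DUSP4, a nuclear phosphatase induced by ERK and acting on ERK and JNK, moved the other way. It measured 62.4, 60.2, 63.6, 60.7 and 61.8 CPM in control 1 to 5 and 72.7, 73.7, 73.3, 76.0 and 72.1 CPM in HG 1 to 5. The lowest HG library was above the highest control library. It rose from 61.8 ± 1.35 to 73.6 ± 1.47 CPM (SD, n = 5 each), a log2 fold change of 0.25 (SE 0.0378, 95% interval 0.16 to 0.34, adjusted p = 0.00142 by edgeR). Its spread was the smallest of the 10 members, with a coefficient of variation of 2.18% in the control and 2.00% in the HG group, so that a change of 19.1% stood clear of it. The ratio of DUSP1 to DUSP4, formed after the values were seen, was between 2.58 and 2.97 in the control libraries and between 1.74 and 1.99 in the HG libraries. The difference of -0.61 on the log2 scale follows from the opposite changes of the genes.

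DUSP5, a nuclear phosphatase specific for ERK, did not pass the test. Its values were 17.0, 14.9, 15.9, 19.2 and 16.2 CPM in control 1 to 5 and 18.3, 17.5, 18.5, 19.97 and 19.4 CPM in HG 1 to 5. The groups overlapped through control 4, which was above 3 of the 5 HG libraries, while the other 4 control libraries were below all of them. The log2 fold change was 0.17 (SE 0.076, 95% interval -0.00425 to 0.35, adjusted p = 0.167 by edgeR). The unadjusted p was 0.0463 by edgeR, whose test uses more degrees of freedom than the interval. DUSP5 lies at chr10:110497838-110511544 on the plus strand.

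DUSP6, the cytoplasmic phosphatase specific for ERK and a common readout of ERK activity, was not called. It measured 4.82, 5.14, 5.36, 6.14 and 4.45 CPM in control 1 to 5 and 5.82, 6.71, 6.20, 6.41 and 6.81 CPM in HG 1 to 5. Again control 4 was the library that overlapped, and it was above HG 1 alone. The means were 5.18 ± 0.638 and 6.39 ± 0.402 CPM (SD, n = 5 each). On the log2 scale the change was 0.30 (SE 0.105, 95% interval 0.06 to 0.55), with an adjusted p of 0.0799 by edgeR. The call depended on the setting: the adjusted p was 0.0413 without control 4 and 0.0348 with the trend of each library on transcript GC and length removed. It was 0.224 by edgeR's likelihood ratio test, and 0.224 and 0.219 by limma on FPKM with pseudocounts of 1 and 0.1, where the change at a pseudocount of 1 was 0.17. DUSP6 (chr12:89347232-89353271, minus strand) shares 2257 bases with the antisense gene AC024909.2.

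None of the 3 Sprouty genes was called. SPRY2, whose product is recruited to the membrane when receptors are active, measured 23.7, 21.9, 25.3, 22.1 and 22.2 CPM in control 1 to 5 and 20.003, 23.7, 24.8, 23.3 and 22.7 CPM in HG 1 to 5. The groups lay on top of each other, with means of 23.0 ± 1.46 and 22.9 ± 1.79 CPM (SD, n = 5 each). On the log2 scale the change was -0.00869 and its 95% interval ran from -0.17 to 0.15 (adjusted p = 0.955 by edgeR), and the sign turned under several settings. SPRY2 lies at chr13:80335976-80340951 on the minus strand.

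SPRY4 measured 1.79, 2.11, 2.45, 2.09 and 2.81 CPM in control 1 to 5 and 2.44, 3.25, 2.72, 3.04 and 2.77 CPM in HG 1 to 5. Control 5 lay above 3 of the 5 HG libraries. Each of these values rests on 59 to 134 counts. The log2 fold change was 0.34 (SE 0.155, 95% interval -0.0216 to 0.69, adjusted p = 0.184 by edgeR), and 0.11 by limma on log2(FPKM + 1). SPRY4 lies at chr5:142310427-142326455 on the minus strand and overlaps its antisense gene SPRY4-AS1 over 1163 bases.

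SPRY1 had the fewest counts of the members, with 34, 27, 25, 9 and 3 in control 1 to 5 and 43, 57, 39, 36 and 19 in HG 1 to 5. Only control 5 was at the limit of detection. In CPM the control libraries spanned 0.0674 to 1.03 and the HG libraries 0.578 to 1.38, and the groups overlapped. The log2 fold change of 0.97 had an SE of 0.529 and a 95% interval from -0.25 to 2.19, which holds 0 as well as a rise of the fitted size and more (adjusted p = 0.262 by edgeR). On log2(FPKM + 1), where the pseudocount shrinks the change of low genes, it was 0.30 by limma. Its coefficient of variation was 71.3% in the control group and 29.9% in the HG group. SPRY1 lies at chr4:123396795-123403760 on the plus strand.

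SPRED1 and SPRED2, which both recruit neurofibromin to RAS, were not called either. SPRED1 measured 36.4, 26.2, 33.2, 37.0 and 34.7 CPM in control 1 to 5 and 22.5, 34.3, 31.4, 38.1 and 30.7 CPM in HG 1 to 5. The lowest value of each group was in control 2 and HG 1, the libraries that stood apart in GC content, against 30.7 to 38.1 CPM in the other 8. SPRED1 has the lowest transcript GC content of the members (38.9%). With the GC and length trend removed its coefficient of variation went from 13.1% to 4.75% in the control and from 18.4% to 8.64% in the HG group. The log2 fold change was -0.0937 (SE 0.137, 95% interval -0.41 to 0.22, adjusted p = 0.724 by edgeR) and turned to 0.00877 without HG 1. SPRED1 lies at chr15:38252326-38357249 on the plus strand.

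SPRED2 measured 29.1, 27.7, 32.9, 30.4 and 31.9 CPM in control 1 to 5 and 30.7, 37.7, 36.5, 36.3 and 33.2 CPM in HG 1 to 5. HG 1 was the library that overlapped the control group, and the other 4 HG libraries were above every control. The means were 30.4 ± 2.10 and 34.9 ± 2.87 CPM (SD, n = 5 each), with a log2 fold change of 0.20 (SE 0.0716, 95% interval 0.0332 to 0.36). The adjusted p was 0.0898 by edgeR with all libraries, 0.0216 without HG 1, and 0.0143 with the GC and length trend removed. It was 0.158 by edgeR's likelihood ratio test, and 0.335 and 0.360 by limma on FPKM with pseudocounts of 1 and 0.1. SPRED2 lies at chr2:65310851-65432637 on the minus strand and holds the sense-intronic gene AC012370.1 within an intron.

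ETV5 had the largest log2 fold change of the members that passed the test. It measured 20.2, 17.5, 19.3, 20.4 and 19.1 CPM in control 1 to 5 and 23.4, 33.3, 30.4, 26.6 and 26.2 CPM in HG 1 to 5. No HG library reached down to the control group, although the HG libraries were spread more widely (coefficient of variation 13.9% against 5.95%). The means were 19.3 ± 1.15 and 28.0 ± 3.89 CPM (SD, n = 5 each), a log2 fold change of 0.54 (SE 0.0942, 95% interval 0.32 to 0.75, adjusted p = 0.00342 by edgeR). ETV5 lies at chr3:186046308-186110318 on the minus strand. It shares 1778 bases with ETV5-AS1 and 4651 bases with DGKG on its own strand, and reads in the shared parts cannot be assigned with certainty.

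DUSP1, DUSP4 and ETV5 were also the 3 of 10 members whose groups did not overlap, against 13.6% of all entries tested (6.74% with HG higher and 6.91% with HG lower). Of the 7 members that were not called, 5 had a fitted log2 fold change above 0, from 0.17 to 0.97. The median over all entries tested was 0.00132, and whether the members differed from it in direction was not tested. SPRY2 and SPRED1 were the members with a fitted value below 0 that was not called.

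**Figure D2:**
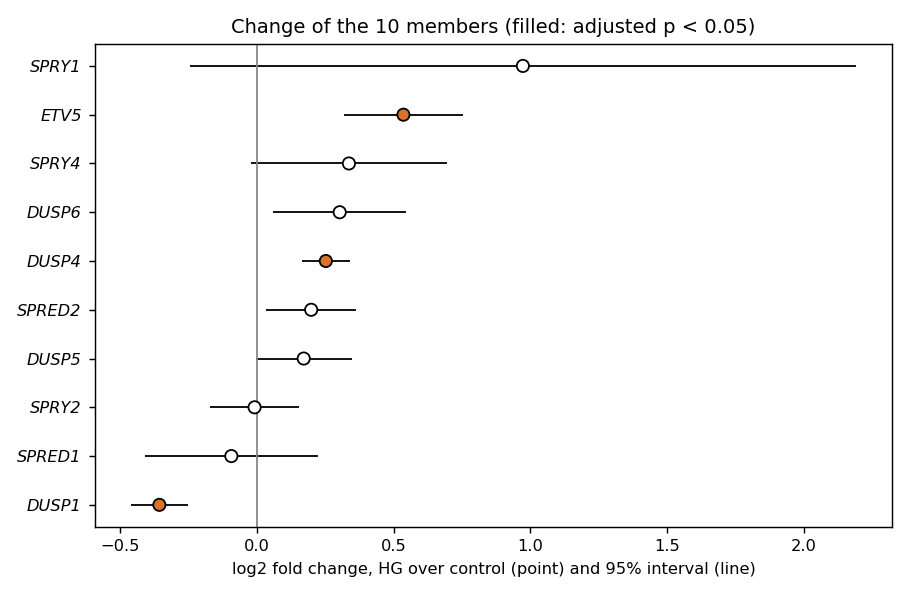
Log2 fold change of HG over control for the 10 members (horizontal axis) with the 95% interval of each as a line, filled points marking an adjusted p under 0.05. DUSP1 lies at -0.36, DUSP4 at 0.25 and ETV5 at 0.54, while the line of SPRY1 spans -0.25 to 2.19.

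Levels of different genes were compared in FPKM, which is divided by transcript length. In the control group DUSP1 was far above the rest at 79.3 ± 3.56 FPKM (SD, n = 5), followed by DUSP4 at 10.3 ± 0.357, SPRY2 at 9.01 ± 0.696, SPRED2 at 6.83 ± 0.697, DUSP5 at 6.19 ± 0.646, ETV5 at 4.44 ± 0.302, SPRED1 at 4.26 ± 0.601 and DUSP6 at 1.46 ± 0.275. SPRY4 was at 0.419 ± 0.0765 FPKM and SPRY1 at 0.204 ± 0.139 FPKM. Neighbours in this order that overlapped between libraries were DUSP4 and SPRY2, SPRED2 and DUSP5, ETV5 and SPRED1, and SPRY4 and SPRY1. In the HG group the order of the means was the same, with DUSP1 at 62.4 ± 2.79 FPKM and DUSP4 at 12.4 ± 0.435 FPKM. DUSP4 no longer overlapped SPRY2 there, SPRY2 overlapped SPRED2, ETV5 at 6.58 ± 1.01 FPKM overlapped DUSP5 at 7.03 ± 0.423 FPKM, and ETV5 was above SPRED1 in every library.

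Among the 4 member phosphatases DUSP1 made up most of the mRNA, in a sum that leaves out DUSP10 and the other MAP kinase phosphatases. The summed FPKM of DUSP1, DUSP4, DUSP5 and DUSP6 was 94.2 to 103.2 in the control libraries and 78.9 to 87.9 in the HG libraries, without overlap. The share of DUSP1 in that sum was between 80.3% and 82.7% in the control group and between 73.5% and 75.7% in the HG group. The Sprouty sum overlapped between the groups, at 8.98 to 10.8 against 8.35 to 11.4 FPKM, and so did the SPRED sum at 9.38 to 12.5 against 9.04 to 13.0 FPKM. For SPRY1 the ratio of CPM to FPKM differed by up to 2.99-fold between libraries, for DUSP6 by 1.34-fold and for SPRED2 by 1.24-fold, so that after scaling for library size the counts and the FPKM values are not fixed multiples of each other for these genes.

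**Figure D3:**
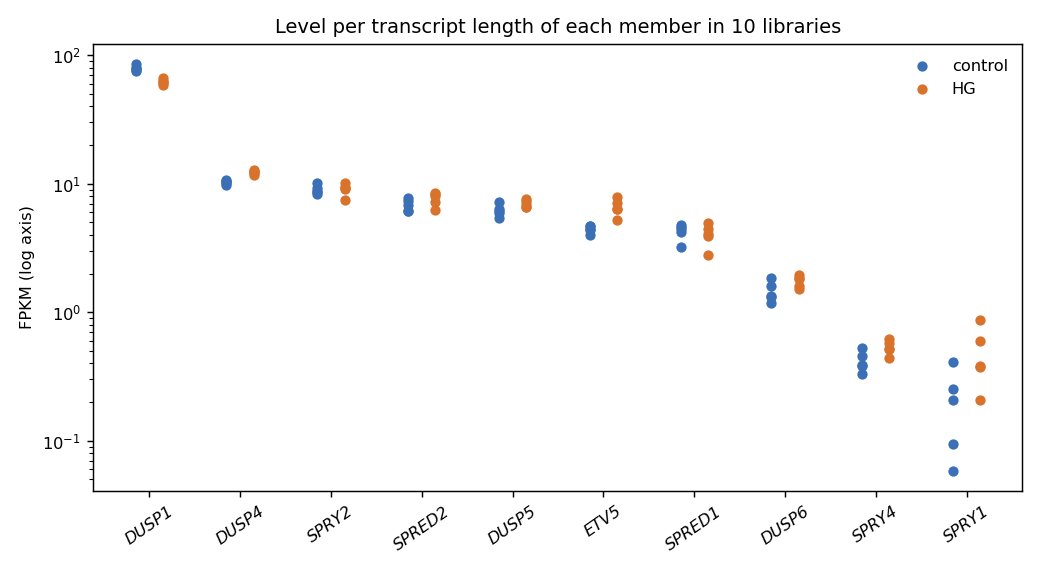
FPKM of each member on a log axis in the 5 control and 5 HG libraries, in descending order of the control mean: each point is 1 library. DUSP1 sits between 59.1 and 85.1 FPKM, DUSP4 between 9.78 and 12.9, and SPRY1 between 0.0583 and 0.874.

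Within the groups the members did not move as a single block. After subtracting the group means, the 45 pairs of members had a median correlation of 0.21 over the 10 libraries, between -0.57 (DUSP1 with SPRY4) and 0.76 (SPRY2 with SPRED2), and 31 of the 45 were above 0. These are descriptions over 10 points that share libraries, depth and the GC trend of control 2 and HG 1. SPRED2 also had a correlation of 0.75 with SPRED1 and 0.73 with ETV5. Among 12356 other genes, those whose deviations were most like the mean of the members, each scaled to the same SD, were SYNM (r = 0.99), SLC44A5 (0.98), SLC35F5 (0.98), SRGAP2C (0.97) and PGM3 (0.96). Those most like DUSP6 were FKBP7 (0.95), MED26 (0.92), SRP19 (0.92), CHRM3 (0.91) and POLR3E (0.88). Both sets were picked as the highest of 12356 values over 10 libraries, so a high r is in part the result of selection. No baseline from other genes was formed.

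The relatives of the members were called at a share near that of all entries (15.4%). Of the other MAP kinase phosphatases 5 were tested and 1 fell (20%): DUSP2, a nuclear phosphatase, from 1.53 ± 0.288 to 0.961 ± 0.101 CPM (SD, n = 5 each; log2 fold change -0.67, adjusted p = 0.0308 by edgeR). Its call was lost in 7 of 22 alternative settings. DUSP10, which acts on p38 and JNK and had the highest CPM of that list, was at -0.00338 on the log2 scale (adjusted p = 0.978 by edgeR). Of SPRY3 and SPRED3 none was called by edgeR, DESeq2 or limma and 0 had an unadjusted p under 0.05, with SPRED3 at -0.0356 on the log2 scale. Among 16 other feedback inhibitors of receptors and RAS 3 were called (18.8%). PEBP1, which binds RAF and keeps it from MEK, rose by 0.24 on the log2 scale (adjusted p = 0.00502 by edgeR). The ubiquitin ligase CBLB, which marks receptors for degradation, changed by -0.33 (adjusted p = 0.0155) and the RAS-inactivating protein DAB2IP by -0.26 (adjusted p = 0.0136), and the latter call was lost with limma on FPKM. PEA15, at the highest CPM of that list, was at 0.0157 (adjusted p = 0.849).

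Other genes known to be turned on by ERK were called in both directions: 3 of 15 tested rose and 4 fell (46.7% of the list against 15.4% of all entries). With the GC and length trend removed 10 were called (29.3% of all entries), and with 1 surrogate variable 11 (33.4%). ETV1, another PEA3 factor, rose as ETV5 did, from 24.2 ± 1.82 to 39.2 ± 5.83 CPM (SD, n = 5 each; log2 fold change 0.70, adjusted p = 0.00135 by edgeR). PHLDA1 rose from 90.9 ± 6.34 to 139 ± 12.4 CPM (0.62, adjusted p = 0.000297). The immediate early transcription factor EGR1 fell from 2.43 ± 0.312 to 1.28 ± 0.188 CPM (-0.92, adjusted p = 0.00357), as DUSP1 did, and by limma on log2(FPKM + 1) the change was -0.31. IER3, also an early response gene, fell from 32.5 ± 3.89 to 23.5 ± 2.29 CPM (-0.47, adjusted p = 0.00694). CCND1, at the highest CPM of the list and the cyclin that opens the cell cycle, was at -0.20 on the log2 scale (adjusted p = 0.0948) by edgeR. It was called in 5 of 23 alternative settings, DESeq2 (adjusted p = 0.0484) among them.

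**Figure D4:**
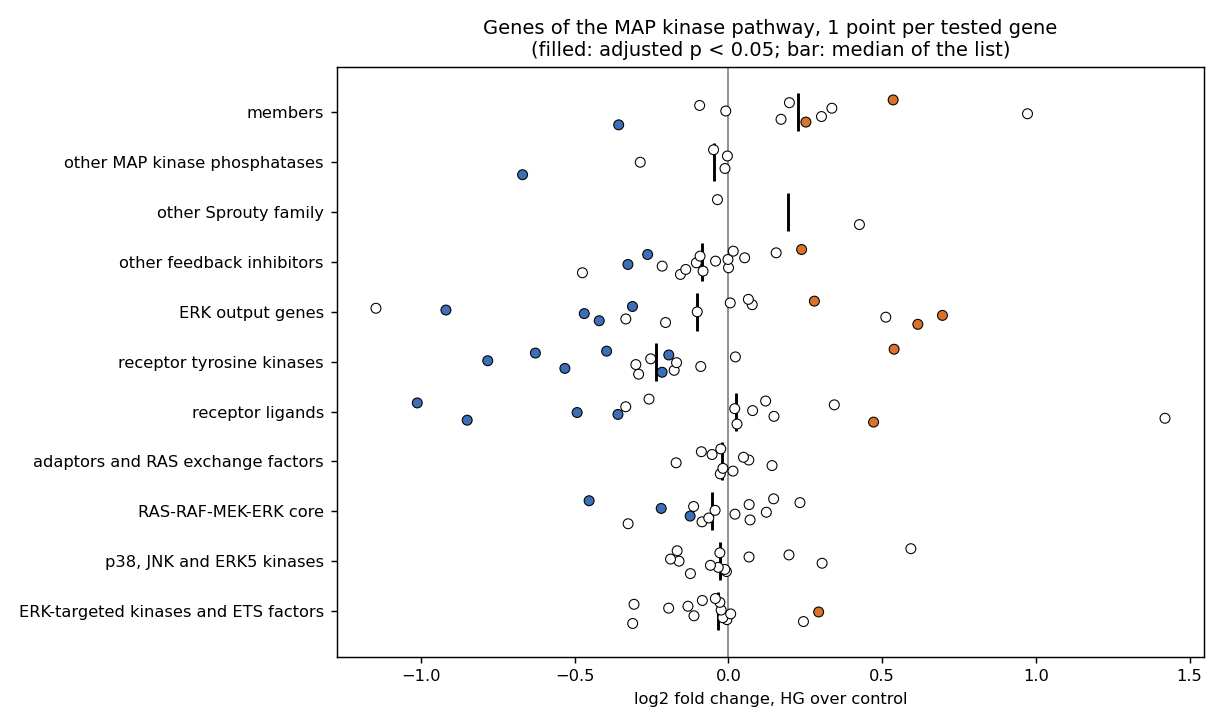
Log2 fold change of HG over control (horizontal axis) for every tested gene of the members and of 10 pathway lists, 1 row of points per list, filled where the adjusted p was under 0.05. The members have 3 filled points of 10, the ERK output genes 7 of 15, the receptor tyrosine kinases 7 of 14, and the adaptors and the p38, JNK and ERK5 kinases none.

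Upstream of the members, 14 receptor tyrosine kinases were tested, of which 1 rose and 6 fell (50% of the list called, against 15.4% of all entries). PDGFRB, a receptor for platelet-derived growth factor, fell from 177 ± 14.7 to 103 ± 8.76 CPM (SD, n = 5 each; log2 fold change -0.78, adjusted p = 0.000123 by edgeR). The collagen receptor DDR2 rose by 0.54 on the log2 scale (adjusted p = 0.00534), while ERBB4 changed by -0.53 (adjusted p = 0.0173), AXL, at the highest CPM, by -0.19 (adjusted p = 0.00462) and KDR by -0.63 (adjusted p = 0.0452). The KDR call was lost in 15 of 22 alternative settings. Of 14 receptor ligands tested, 1 rose and 4 fell (35.7%), and 8 were called with the GC and length trend removed (29.3% of all entries in that setting) and 9 with 1 surrogate variable (33.4%). HBEGF, a ligand of the EGF receptor, fell from 32.3 ± 2.18 to 17.9 ± 2.00 CPM (-0.85, adjusted p = 0.000139), and TGFA, another, rose by 0.47 (adjusted p = 0.00568). PDGFB changed by -1.01 (adjusted p = 0.00377) and FGF1 by -0.49 (adjusted p = 0.00253; lost in 2 of 3 limma settings), whereas FGF2, the ligand at the highest CPM, was at 0.0786 (adjusted p = 0.750; called with 1 surrogate variable at 0.15, adjusted p = 0.0014).

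In the cascade itself, 0 of the 14 core genes from RAS to ERK rose and 3 fell (21.4% of the list called, against 15.4% of all entries). With the GC and length trend removed 5 were called, where 29.3% of all entries were, and 6 with 1 surrogate variable, where 33.4% were. The 3 were the scaffold KSR1, which changed by -0.45 on the log2 scale (adjusted p = 0.00397 by edgeR), the MEK gene MAP2K1 by -0.22 (adjusted p = 0.0167) and RRAS2, at the highest CPM, by -0.12 (adjusted p = 0.0426; lost in 12 of 23 alternative settings). With all libraries, 0 of 10 adaptors and RAS exchange factors were called by edgeR's quasi-likelihood test, DESeq2 or limma and 0 had an unadjusted p under 0.05, with SHC1 at 0.0148. Of these 10, 1 was called without control 2 and HG 1 together (27.1% of all entries in that setting) and 2 with 1 surrogate variable (33.4%). Of 13 kinases of the p38, JNK and ERK5 branches, 0 were called by edgeR's quasi-likelihood test or limma with all libraries. DESeq2 called 1, where it called 19.9% of all entries. An unadjusted p under 0.05 by edgeR was found for 4, and the share of all entries under that limit was not counted. MAPK14 (p38 alpha) was at -0.0118 on the log2 scale. Of these 13, 3 were called without HG 1 (19.9% of all entries in that setting), 3 without control 2 and HG 1 together (27.1%), 3 with 1 surrogate variable (33.4%) and 4 with the GC and length trend removed (29.3%). Among 14 kinases and ETS factors that ERK acts on, 1 was called: MKNK2, which phosphorylates an initiation factor of translation, rose by 0.29 (adjusted p = 0.0288; lost in 9 of 23 alternative settings). Of these 14, 2 were called by DESeq2 (19.9% of all entries) and 4 each without control 2 and HG 1 together (27.1%), with 1 surrogate variable (33.4%) and with the GC and length trend removed (29.3%). CIC, whose site was among the motifs searched, was at -0.0426 (adjusted p = 0.632).

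**Figure D5:**
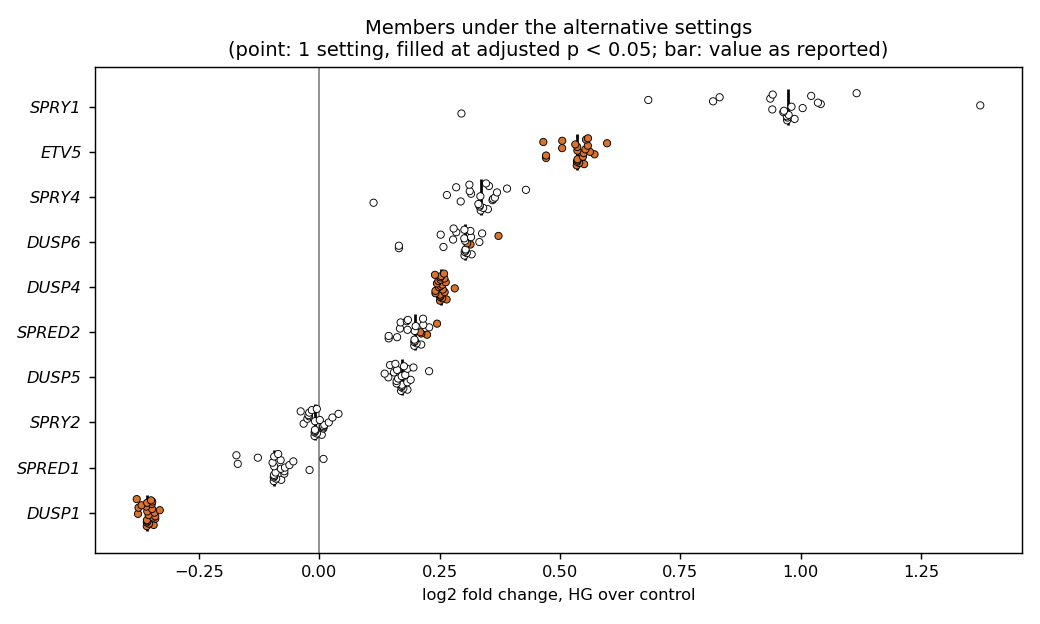
Log2 fold change of each member (horizontal axis) under the alternative settings, 1 point per setting and filled where the adjusted p was under 0.05. All points of DUSP1, DUSP4 and ETV5 are filled and lie on 1 side of 0, DUSP6 has 3 filled points and SPRED2 has 4.

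DUSP1, DUSP4 and ETV5 were called in each of the 23 alternative settings, the 10 that leave out 1 library included. Without 1 library the log2 fold change was between -0.38 and -0.33 for DUSP1, between 0.24 and 0.26 for DUSP4 and between 0.47 and 0.60 for ETV5. With the GC and length trend removed, DUSP1 was at 115 to 151 CPM in the HG libraries and at 160.3 to 200.6 CPM in the control libraries, still without overlap, although its coefficient of variation went up from 4.87% to 8.37% in the control and from 3.61% to 9.98% in the HG group. Under that setting 5 of 10 members were called, DUSP6 and SPRED2 in addition, as they were with 1 surrogate variable. The share called over all entries was also larger there, at 29.3% with the trend removed and 33.4% with 1 surrogate variable, against 15.4%.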

How the data were processed

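RNA of 10 ARPE-19 libraries was sequenced (VAHTS Universal V6 kit). The submitters' processing notes name fastp 0.20.1, HISAT2 2.2.1 and GRCh38; the counting program, its annotation and its use of strand are not given in the sources used here. The authors deposited whole-number read counts per gene without normalization, and FPKM values of the same libraries, divided by transcript length and library size.

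From the counts, R 4.3.3 with edgeR 4.0.16 was used: default filter on low counts, TMM normalization, quasi-likelihood test over 14936 entries, Benjamini-Hochberg adjustment over these, a prior count of 2 in log2 CPM. CPM values use TMM-scaled library sizes. Each SE is the absolute log2 fold change over the square root of the test statistic. Intervals use a t distribution on the residual degrees of freedom, not the moderated ones of the test. Single values were tested by exact permutation over 252 arrangements. FPKM served to compare levels between genes. Alternatives were RLE factors, library size alone, other filters, the likelihood ratio test, DESeq2 1.42.0, limma 3.58.1 on log2(FPKM + 1) and on log2(FPKM + 0.1), 1 surrogate variable (sva 3.50.0), removal of a lowess trend (span 0.3) on GC content and transcript length over 13538 entries, no MSTRG loci, and each library left out. The main edgeR fit, DESeq2 and limma on log2 CPM were also run on simulated counts, which held no GC trend. The other steps were not tested in that way.

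The members, pathway lists and tests were chosen with earlier results of these data known. All members are named; from each list the text names up to 4 called genes, those of largest absolute log2 fold change, and the gene at the highest mean CPM. Genes with a pattern like DUSP6 or the mean of the members were the 5 with the highest Pearson correlation of log2 CPM after subtracting group means, among genes at 1 CPM or more. Positions and overlaps come from GENCODE 29 on GRCh38. Detection limits cover counting error only. Protein, PCR and animal data were not analysed here.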

Additional observations from a re-analysis of the deposited data

How the results depend on the processing

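DUSP1, DUSP4 and ETV5 kept their direction and their call in each of the 23 alternatives, and DUSP5, SPRY1, SPRY2, SPRY4 and SPRED1 were not called in any in which they were tested. SPRY1 was not tested with at least 10 counts in every library, nor SPRY1 and SPRY4 at a mean of at least 1 FPKM. DUSP6 was called with 1 surrogate variable (log2 fold change 0.31), with the GC content and length trend removed (0.31) and without control 4 (0.37), and SPRED2 in the first pair of these settings (0.22 and 0.21), without control 2 and HG 1 together (0.21) and without HG 1 (0.24). The members called numbered 5 with 1 surrogate variable and 5 with the GC and length trend removed, against 3, and were between 3 and 4 with 1 library left out. Over all entries 2303 genes were called; the count was 4985 with 1 surrogate variable, 3968 with the GC and length trend removed, 4035 without control 2 and HG 1 together, 3085 with DESeq2, and between 1648 (without HG 3) and 2993 (without HG 1) with 1 library left out. The cause was not tested.

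Changes of sign concerned values near 0 that were not called. SPRY2 turned to 0.00512 on the log2 scale with library size alone, 0.0083 with limma on log2(FPKM + 1), also at a mean of at least 1 FPKM, 0.00878 on log2(FPKM + 0.1), 0.0106 with 1 surrogate variable, 0.0197 without control 2 and HG 1 together, and lay between -0.0386 and 0.0399 with 1 library left out. SPRED1 lay between -0.17 and 0.00877 with 1 library left out. DUSP10 turned to 0.0101 with library size alone, 0.00022 without a filter, 0.0107 with 1 surrogate variable, 0.023 without control 2 and HG 1 together, and between -0.0498 and 0.0344 with 1 library left out. SPRED3 turned to 0.0615 and 0.0828 with limma at the pseudocounts of 1 and 0.1, to 0.0114 with the GC and length trend removed, and between -0.0918 and 0.0653 with 1 library left out. CIC turned to 0.0247 and 0.0261 with limma and 0.0739 with the trend removed. MAPK14 turned to 0.00135 with library size alone, 0.00438 with 1 surrogate variable, 0.00103 without control 2 and HG 1 together, and between -0.0343 and 0.0168 with 1 library left out. PEA15 turned to -0.00161 with the trend removed and SHC1 to -0.015 without control 2 and HG 1 together, and with 1 library left out they lay between -0.00481 and 0.0296 and between -0.0108 and 0.038. No paired fit was made, since the labels of the groups share no replicate numbers and nothing ties a control column to an HG column of the same number.

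On log2(FPKM + 1) low genes had smaller changes: DUSP2 -0.26 against -0.67, PDGFB -0.35 against -1.01, ERBB4 -0.22 against -0.53 and KDR -0.19 against -0.63. SPRY1 (3 to 57 counts) and SPRY4 (59 to 134 counts) rest on the fewest counts. Their 95% intervals hold the log2 fold change of DUSP4, as do those of DUSP5, DUSP6 and SPRED2.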
